A study of Mus musculus with 5 samples.

Results

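The mitochondrial ribosome is built from ribosomal RNAs encoded by mitochondrial DNA and from proteins that are all encoded in the nucleus, made in the cytosol and imported. Most genes of these proteins carry the symbols Mrps, for the small subunit, and Mrpl, for the large subunit. In the count tables, 76 of 23284 gene symbols began with Mrps or Mrpl followed by a number, 29 of the small and 47 of the large subunit. All 76 passed the filter on low counts and were among the 12703 genes tested. The fewest reads on any of them in any sample were 360.

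Mitochondrial ribosomes translate only the messages of the mitochondrial genome, which encode part of the membrane subunits of oxidative phosphorylation. The remaining subunits of those complexes are made by cytosolic ribosomes, so that building them draws on both kinds of ribosome. Erythropoietin (EPO) is the cytokine that drives red blood cell formation, and its receptor, EpoR, is also expressed in the embryonic nervous system.

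RNA was sequenced from neural tubes, the embryonic precursor of the brain and spinal cord, of mouse embryos in 5 samples. There were 2 EpoR-/- (EpoR-null), 2 EpoR+/+ and 1 EpoR+/- samples, and the last 3 were the littermate controls. Their age is E8.5 on the sample labels and E9.0 in the methods of the study. The allele was inherited, so every cell of a null embryo lacked the receptor. The comparison asks how mitochondrial ribosomal protein transcripts differ between neural tubes without EpoR and their controls.

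Reads on genes ranged from 19316126 to 41169218 per sample. Values are CPM, read counts divided by library size after scaling with the trimmed mean of M-values (TMM). Epor itself was at 2.35 and 1.62 CPM in the EpoR+/+ samples, 0.476 in EpoR+/-, and 0.354 and 0.669 in the EpoR-null samples, so that EpoR+/- lay within the EpoR-null range and the difference did not pass the test (FDR = 0.280, edgeR exact test). The 9 neural progenitor markers summed to 1702 to 1955 CPM in controls, and to 1768 and 1480 CPM in the EpoR-null samples. The EpoR+/- sample stood apart in its low levels of markers of other cell types. Its 8 primitive erythroid markers summed to 44.2 CPM, against 603 and 1092 CPM in EpoR+/+ and 1693 and 966 CPM in the EpoR-null samples. Its 6 endothelial markers summed to 11.4 CPM, against 113 to 268 CPM in the other samples. Of the somite, neural crest, and surface ectoderm and gut endoderm lists, 8.30, 33.5 and 10.5 CPM were found in EpoR+/-, in each case the lowest of the 5 samples. No marker on these lists passed the test, and the adult globin gene Hba-a1 had 0 reads in all 5 samples. Reads that align to several places were left out of the counts, so 0 reads need not mean no expression. In bulk tissue, fewer cells of a type and less RNA per cell cannot be told apart.

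The abundance of mitochondrial ribosomal protein transcripts differed by up to 7.64-fold between genes in mean control CPM. Control means ran from 17.1 to 131 CPM with a median of 38.8 CPM, and the 3 controls varied with a median coefficient of variation of 5.20%. Members added up to 0.332%, 0.350% and 0.341% of reads on genes in EpoR+/+ 1, EpoR+/+ 2 and EpoR+/- 1. Between genes, levels were compared per kb of annotated transcript, where the highest was 16.8-fold above the lowest. The median was 26.9 CPM per kb for Mrps and 33.2 for Mrpl genes.

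**Figure D1:**
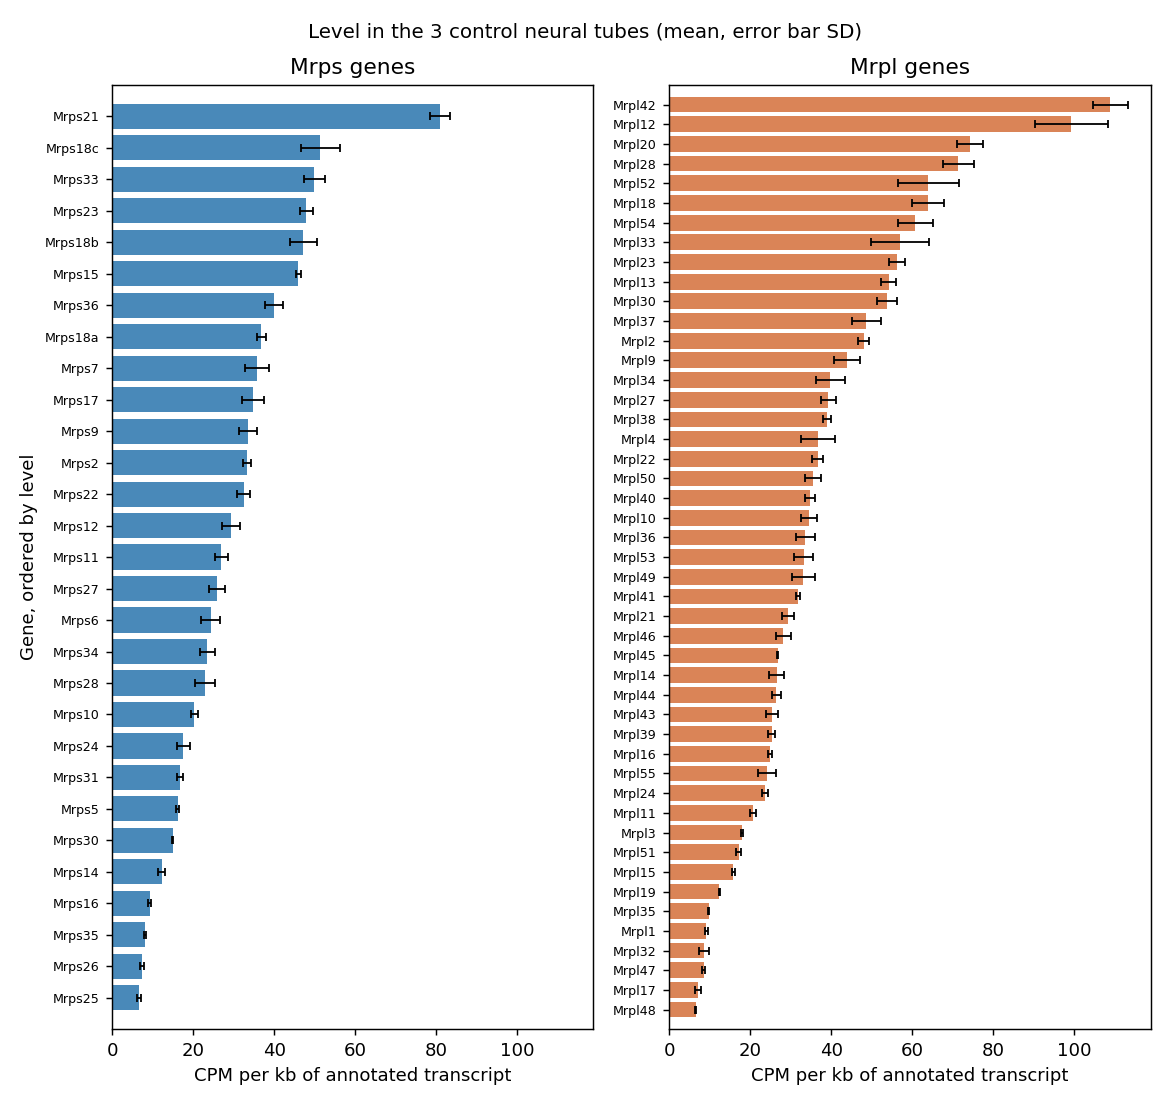
Level of each gene in controls, in CPM per kb of annotated transcript (bars, mean; error bars, SD over 3 samples), with Mrps genes on the left and Mrpl genes on the right. Levels fall gradually from 80.9 CPM per kb for Mrps21 and 109 for Mrpl42 to 6.56 for Mrps25 and 6.49 for Mrpl48.

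Among Mrpl genes the highest was Mrpl42, a protein with no bacterial counterpart, at 109 ± 4.28 CPM per kb (SD, n = 3). Mrpl12, the homologue of the bacterial L7/L12 stalk protein that recruits translation factors, followed at 99.3 ± 8.97 CPM per kb, and Mrpl20, an RNA-binding protein of early large subunit assembly in bacteria, at 74.3 ± 3.22. Mrpl42 and Mrpl12 lay within their SDs of each other, and both lay above Mrpl20 by more than theirs. Among Mrps genes Mrps21 led at 80.9 ± 2.43 CPM per kb. Mrps18c at 51.4 ± 4.71 and Mrps33 at 49.9 ± 2.65 did not differ beyond their spread.

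The lowest levels per kb belonged to Mrps25, Mrps26 and Mrps35, at 6.56 ± 0.452, 7.22 ± 0.480 and 8.09 ± 0.171 CPM per kb, and to Mrpl48, Mrpl17 and Mrpl47, at 6.49 ± 0.173, 7.14 ± 0.696 and 8.48 ± 0.432. Their annotated transcripts are long for this family, from 3364 nucleotides for Mrpl47 to 7300 for Mrpl17, against a family median of 1224.5. A level per kb rests on that annotated length. In plain CPM these 6 genes lay between 27.0 and 57.2 CPM in the controls.

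All 76 genes had a higher fitted level without EpoR. Their log2 fold changes ranged from 0.07 for Mrpl19 to 0.66 for Mrpl14, with a median of 0.38, a 1.30-fold higher level, against a median of 0.06 over the 12703 genes tested. Few single genes passed the test. At p under 0.001 and FDR under 0.05 (edgeR exact test, Benjamini-Hochberg adjustment), 2 genes were called higher, Mrpl23 and Mrps21, where 0.929% of all genes were. Beside 3.84% of all genes, 0 members were called lower. Both called members have annotated transcripts of at most 1802 nucleotides, a class in which 4.25% of all genes were called higher. With FDR under 0.05 alone there were 4 higher, adding Mrpl13 and Mrps18c, beside 1.81% of all genes, and 0 lower, beside 5.49%. In this test 35 members had an unadjusted p under 0.05 in the higher direction. So did 35 in the quasi-likelihood F-test and 39 in DESeq2, and 0 had one in the lower direction in any of these. These tests used the same samples, and no such count was made over all genes.

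**Figure D2:**
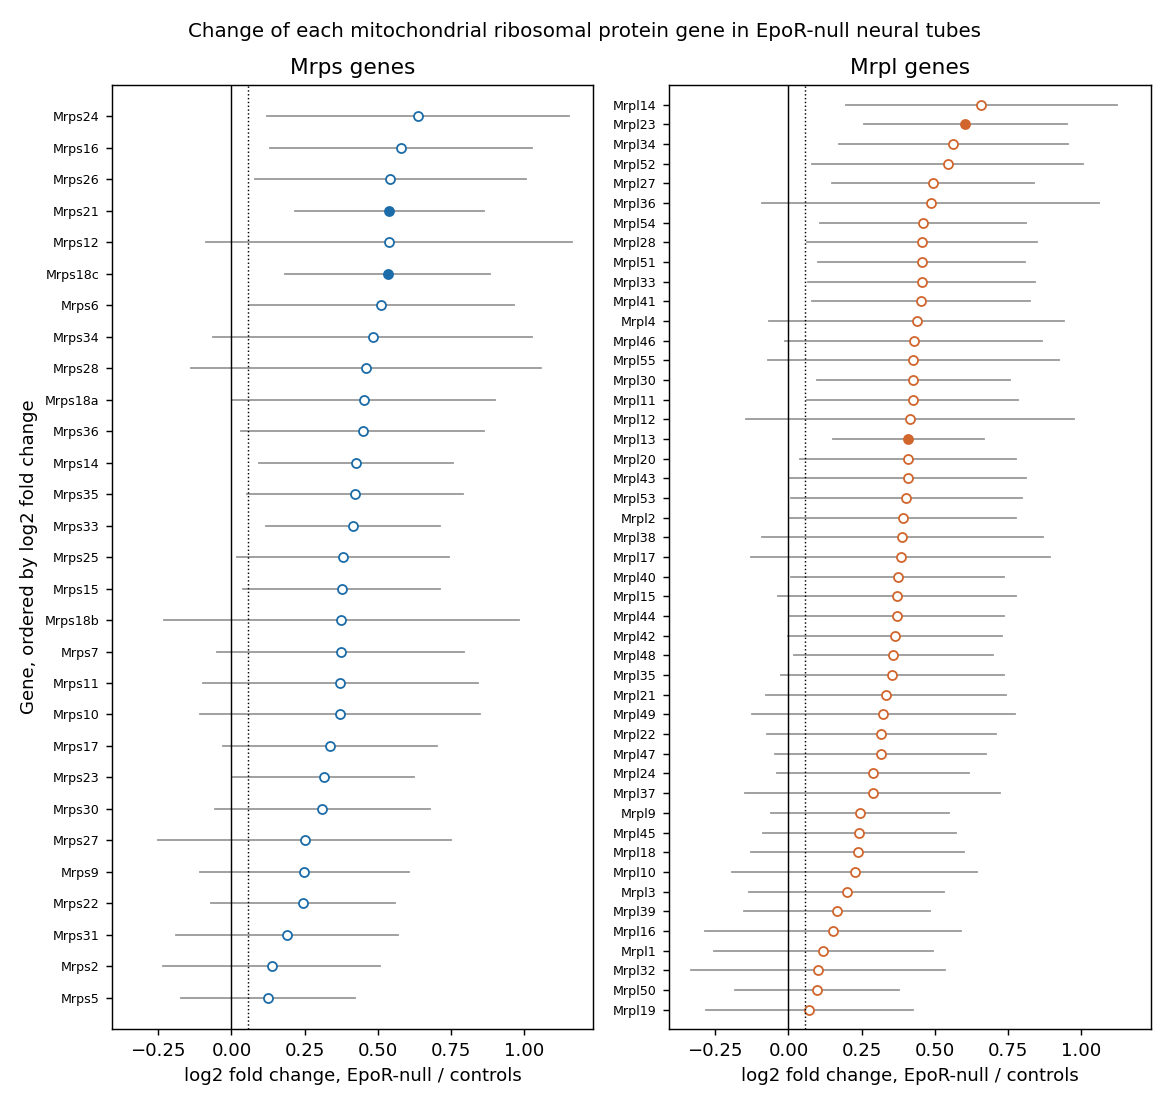
Log2 fold change of each gene, EpoR-null over controls (circles; lines, 95% interval from the standard error), with Mrps genes on the left and Mrpl genes on the right. Filled circles mark the 4 genes with FDR under 0.05, and the dotted line the median of all genes tested, 0.06. All 76 circles lie above 0, while many intervals reach it.

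In 50 of 76 genes both EpoR-null samples lay above all 3 controls, beside 21.2% of all genes tested, and in the remaining 26 the groups overlapped. In 0 genes were both EpoR-null samples below all controls, beside 22.1% of all genes. All 35 genes with an unadjusted p under 0.05 were among the 50, but both counts come from the same values, so this adds no separate evidence.

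Mrpl23, a protein at the mouth of the tunnel through which the nascent chain leaves the ribosome, had 37.3, 39.4 and 39.9 CPM in EpoR+/+ 1, EpoR+/+ 2 and EpoR+/- 1, and 52.1 and 65.9 CPM in EpoR-null 1 and 2. The groups did not overlap, and the controls lay close together. The log2 fold change was 0.60 ± 0.18 (SE), with an FDR of 0.0143 in the exact test.

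Mrps21, the homologue of bacterial S21, had 38.4, 40.8 and 39.3 CPM in the controls and 52.4 and 62.2 CPM in the EpoR-null samples. Both nulls again stood above every control. Its log2 fold change was 0.54 ± 0.16 (FDR = 0.0200, exact test).

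Mrpl13 had 66.0, 64.2 and 68.7 CPM in the controls and 86.5 and 89.4 CPM in the EpoR-null samples. The groups were apart and the 2 nulls lay closer together than in the other 3 genes. Its log2 fold change was 0.41 ± 0.13 (FDR = 0.0304, exact test). In the GENCODE M21 annotation its exons overlap those of Mtbp on the opposite strand. Whether counting used strand is not given in the sources used here. Without strand, reads that overlap both genes are left out where the annotation used for counting holds the overlap. Some Mrpl13 reads may therefore be missing from its counts.

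Mrps18c is 1 of 3 mammalian genes descended from that of bacterial S18. Its levels were 34.9, 29.3 and 34.1 CPM in controls and 44.8 and 50.04 CPM in EpoR-null neural tubes, without overlap, and its log2 fold change was 0.53 ± 0.18 (FDR = 0.0391, exact test). Its paralogue Mrps18b also belongs to the small subunit, with 48.8, 55.0 and 48.8 CPM in controls and 44.2 and 87.6 CPM in the nulls. There the nulls lay on either side of the controls (log2 fold change 0.38 ± 0.31, FDR = 0.534). Mrps18a, which structures of the mammalian ribosome place in the large subunit despite its name, had 31.7, 33.6 and 32.2 CPM in controls and 35.5 and 53.3 CPM in nulls (0.45 ± 0.23, FDR = 0.244).

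The next genes by p were Mrpl34, with 22.4, 26.6 and 23.3 CPM in controls and 32.5 and 38.7 in nulls, and Mrpl27, with 28.1, 30.8 and 30.2 CPM against 38.7 and 44.8. Both are homologues of bacterial large subunit proteins, Mrpl27 of the one that reaches toward the peptidyl transferase centre. Neither overlapped between groups, and neither passed the adjustment (FDR = 0.0572 and 0.0598, exact test).

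**Figure D3:**
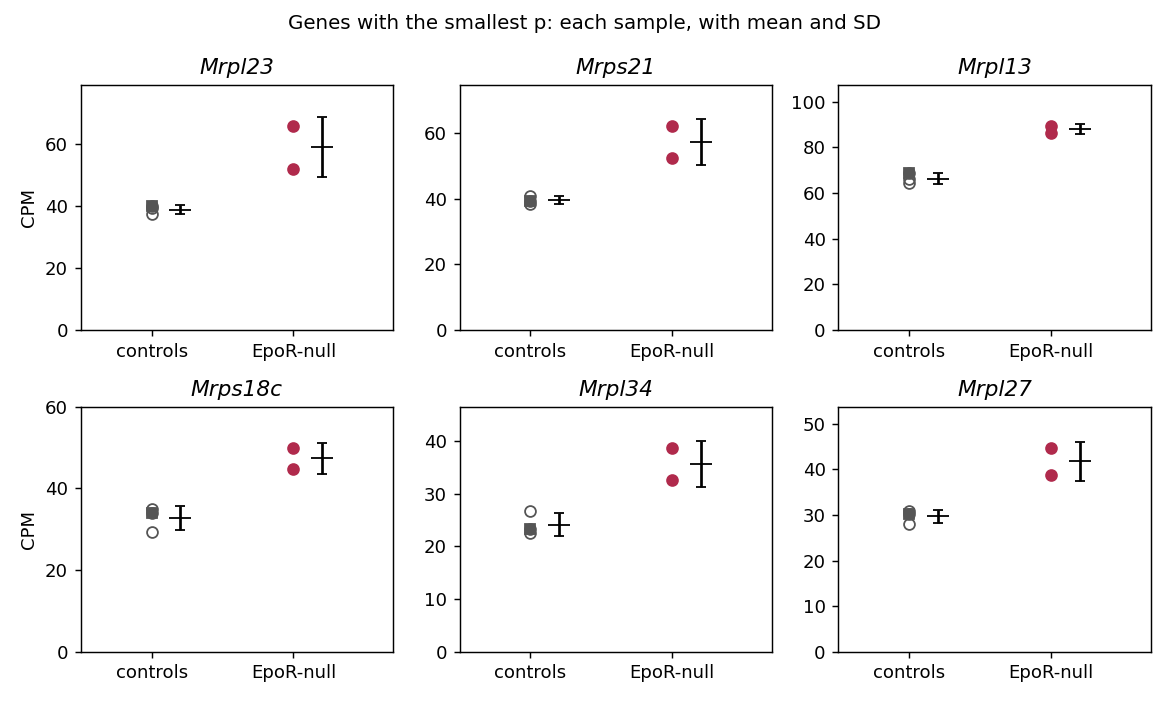
CPM of the 6 genes with the smallest p in each sample (open circles, EpoR+/+; filled square, EpoR+/-; filled circles, EpoR-null), with the group mean and SD as crossbars. In all 6 both EpoR-null samples lie above the 3 controls.

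The difference from controls was larger in EpoR-null 2 than in EpoR-null 1. Summed over the 76 genes, levels were 3273, 3433 and 3389 CPM in EpoR+/+ 1, EpoR+/+ 2 and EpoR+/- 1, then 3639 CPM in EpoR-null 1 and 4958 CPM in EpoR-null 2. Relative to the mean log2 CPM of controls, the median gene stood at 0.13 in EpoR-null 1 and at 0.58 in EpoR-null 2, and the controls at -0.04, 0.03 and 0.01. Genes above the control mean numbered 59 in EpoR-null 1 and 76 in EpoR-null 2. EpoR-null 2 exceeded all controls in 75 genes, and EpoR-null 1 did so in 50 and fell below all controls in 7. Short genes in general also stood higher in EpoR-null 2. The 2520 genes with annotated transcripts up to 1802 nucleotides, members included, had medians of 0.21 and 0.47 in EpoR-null 1 and 2. For these medians 0.5 CPM was added before taking log2.

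**Figure D4:**
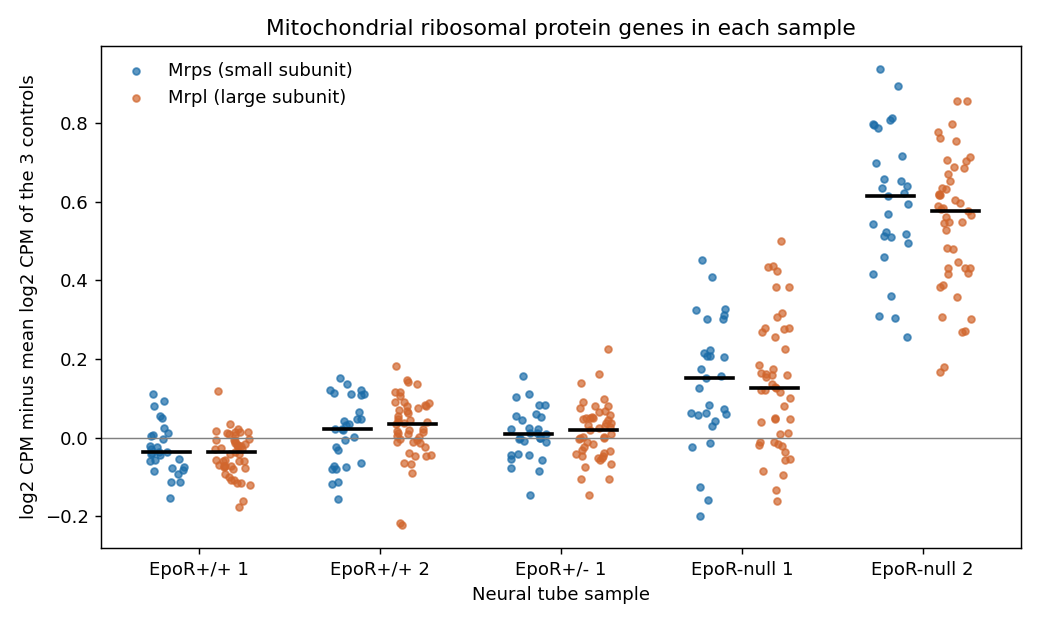
Log2 CPM of each gene minus its mean over the 3 controls (vertical axis) in each neural tube sample, with Mrps genes in blue, Mrpl genes in orange and medians as black lines. The 3 controls centre near 0, EpoR-null 1 near 0.13 and EpoR-null 2 near 0.58, and the 2 subunits sit at like heights within each sample.

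The count of genes past a threshold depended on single samples. Without EpoR-null 1 the median log2 fold change was 0.58, with 66 members higher at FDR under 0.05, beside 14.3% of all genes. Without EpoR-null 2 it was 0.13, with 59 of 76 above 0 and 2 members higher at FDR under 0.05, Mrpl13 and Mrpl23, beside 4.95% of all genes. Leaving out EpoR+/+ 1, EpoR+/+ 2 or EpoR+/- 1 kept the median between 0.37 and 0.40 but left 0 members at FDR under 0.05, beside 0.0318%, 0.111% and 0.111% of all genes. Without EpoR+/- 1, the sample with few erythroid and endothelial transcripts, the median was 0.39. In EpoR+/- 1, members lay above both EpoR+/+ samples in 30 cases, below both in 12 and between them in 34.

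The small and large subunits had nearly equal medians. The median log2 fold change was 0.38 for both the 29 Mrps genes (0.12 to 0.64) and the 47 Mrpl genes (0.07 to 0.66), with 2 members of each at FDR under 0.05. Mrps genes made up 33.8%, 33.4% and 33.6% of the summed CPM in the controls and 33.9% and 33.8% in the EpoR-null samples, a share that hardly moved between samples. Proteins listed as inherited from bacteria and those listed as found only in mitochondria were also close. The median was 0.39 for the 30 large subunit proteins with bacterial homologues and 0.37 for the 17 without. It was 0.40 for 16 small subunit proteins with homologues and 0.38 for 10 listed as without. Those 10 include Mrps18b, although its gene descends from that of bacterial S18. Mrps30, placed in the large subunit by structure, stood at 0.31 ± 0.19, and Mrps36, now assigned to the 2-oxoglutarate dehydrogenase complex, at 0.45 ± 0.21 (FDR = 0.356 and 0.197, exact test).

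Genes chosen for their roles were also higher in EpoR-null 2 than in EpoR-null 1. Mrpl12 had 121, 144 and 127 CPM in controls and 122 and 226 CPM in EpoR-null 1 and 2 (log2 fold change 0.42 ± 0.29, FDR = 0.432). Mrps12, whose bacterial homologue monitors decoding, had 24.5, 28.1 and 25.1 CPM against 25.6 and 49.5 CPM (0.54 ± 0.32, FDR = 0.342). In both, EpoR-null 1 was within the control range and only EpoR-null 2 was above it.

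Mrpl11, at the base of the stalk, was above the controls in both nulls, with 63.6, 65.2 and 60.7 CPM against 71.3 and 98.0 (0.42 ± 0.18, FDR = 0.151). Inherited defects of MRPS16, MRPS22, MRPS34, MRPL3 and MRPL44 cause mitochondrial disease in humans, and none of their mouse genes passed the adjusted test. Among these 5, Mrps16 had the highest log2 fold change, 0.58 ± 0.23 (FDR = 0.0984), with 24.6, 22.6 and 24.1 CPM in controls and 29.2 and 41.6 in nulls. Mrpl3 had the lowest, 0.20 ± 0.17 (FDR = 0.555), with 72.0, 70.7 and 71.1 CPM against 70.5 and 93.0. Mrps34, Mrpl44 and Mrps22 lay between, at 0.48 ± 0.28, 0.37 ± 0.19 and 0.24 ± 0.16.

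Fold changes varied with the annotated length of transcripts, across all genes as well as in this family. Over 12584 genes with a matched transcript, the Spearman correlation of log2 fold change with length was -0.65, and with GC content 0.32. Over the 76 members it was -0.57 and 0.48. These are correlations across genes of the same libraries, given as a description. When genes were cut into 5 equal classes by length, other genes in class 1, up to 1802 nucleotides, had a median log2 fold change of 0.37. The 52 members of that class, which included all 4 with FDR under 0.05, had one of 0.41. In that class 8.02% of all genes had FDR under 0.05 and a higher level, against 1.81% of all genes tested. Called higher were 4.25% of that class, against 0.929% of all genes tested.

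Longer members did not follow the downward course of other long genes. From class 2 to class 5, the longest, other genes had medians of 0.18, 0.03, -0.12 and -0.36, and members had medians of 0.24 (7 genes), 0.31 (7), 0.36 (8) and 0.38 (2). All 17 members of classes 3 to 5 had log2 fold changes above 0. All 17 also had levels per kb under the family median, a measure that divides by the same annotated length. In class 5 stood Mrpl17, with 52.3, 57.2 and 47.0 CPM in controls and 50.7 and 85.3 in nulls, and Mrps25, with 39.2, 42.9 and 37.5 CPM against 45.9 and 58.0. Mrps25 exons overlap those of Nr2c2 on the opposite strand. Exons of 17 members overlap those of another protein-coding gene, and their median log2 fold change was 0.36, against 0.40 for the 59 without overlap.

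**Figure D5:**
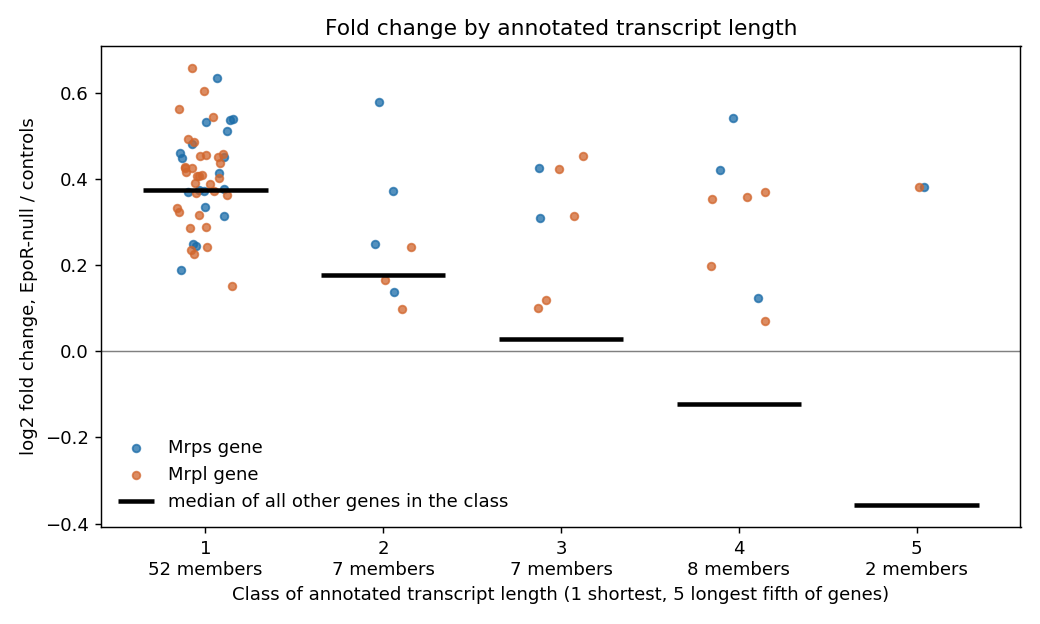
Log2 fold change of each gene, EpoR-null over controls, by class of annotated transcript length (points, Mrps in blue and Mrpl in orange; black lines, median of all other genes in the class). Other genes fall from 0.37 in class 1 to -0.36 in class 5, while members stay above 0 in each.

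With offsets that removed each sample's trend on length and GC content, the median of the 76 genes was 0.04, with 50 above 0, beside a median of 0.03 for all genes (edgeR likelihood-ratio test). None passed FDR under 0.05 then, and 14 had an unadjusted p under 0.05, all higher, with no such count made over all genes. Without offsets the same test gave the 4 genes named above and a median of 0.38. Under the offsets the 52 short members centred at 0.00, with 27 above 0, and the 17 members of classes 3 to 5 at 0.50, with 17 above 0. The highest offset values were those of Mrpl17, Mrps25 and Mrps26, at 0.90, 0.76 and 0.71. Both the class and the offset of a gene rest on its annotated length, which was not checked against the reads. Offsets taken from the longest annotated transcript of each gene in place of the RefSeq-matched one gave a median of 0.10, with Mrpl13 and Mrpl23 at FDR under 0.05. Whether the trend with length arose in the embryos or in the preparation of RNA and libraries was not tested.

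The other proteins of the mitochondrial ribosome, which carry names outside the Mrp series, stood mostly with the family. Of 7 such genes 6 had log2 fold changes above 0, with a median of 0.36. Beside 0.929% of all genes tested, 1 was called higher, the small subunit protein Chchd1. It had 47.0, 44.0 and 48.2 CPM in controls and 61.2 and 71.5 in nulls (0.52 ± 0.16, FDR = 0.0209, exact test). The exception was Ptcd3, a small subunit protein with RNA-binding repeats, with 166, 162 and 172 CPM against 137 and 178 (-0.08 ± 0.17, FDR = 0.849).

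The remaining machinery of mitochondrial gene expression centred lower. The 26 assembly and rRNA modification factors tested had a median of 0.21, and 0 were called in either direction. The smallest p among them was that of Ngrn, which is needed for the mitochondrial large ribosomal RNA, at 17.8, 16.7 and 15.4 CPM in controls and 19.0 and 25.002 in nulls (0.41 ± 0.24, FDR = 0.346). The 13 translation factors had a median of -0.01 with 0 called, and the smallest p belonged to Lrpprc, which stabilises mitochondrial mRNA, at 145, 146 and 140 CPM against 119 and 129 (-0.21 ± 0.13, FDR = 0.380).

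The list of 20 mitochondrial aminoacyl-tRNA synthetase genes, which also holds the glutamyl-tRNA amidotransferase subunit genes Pet112l, Gatc and Qrsl1, had a median of 0.01 and 0 called. Mars2, which charges methionine tRNA, had 15.2, 13.5 and 14.4 CPM in controls and 7.83 and 10.6 in nulls (-0.64 ± 0.27, FDR = 0.161). With length and GC offsets its log2 fold change was 0.12, above 0. The 10 genes of mitochondrial DNA maintenance and transcription had a median of 0.06, with 0 called. Ssbp1, the mitochondrial single-stranded DNA-binding protein, had the smallest p, at 58.7, 58.8 and 67.9 CPM against 67.8 and 89.3 (0.35 ± 0.18, FDR = 0.276). Annotated transcripts in these 4 lists were longer, with medians from 2138 nucleotides for assembly factors to 3282 for the synthetase list. Under the length and GC offsets the list medians ran from -0.02 to 0.08.

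Cytosolic ribosomal proteins and the respiratory chain, whose transcripts are also short, had higher medians. The 76 cytosolic ribosomal protein genes tested had a median log2 fold change of 0.46, with 76 above 0, 14 at FDR under 0.05 and 6 called higher. The 79 genes tested for respiratory chain and ATP synthase subunits had a median of 0.51, with 78 above 0, 42 at FDR under 0.05 and 30 called higher. Their annotated transcripts had median lengths of 831.5 and 865 nucleotides. Over all genes tested, 1.81% were higher at FDR under 0.05 and 0.929% were called higher. Among all genes with annotated transcripts up to 1802 nucleotides, these shares were 8.02% and 4.25%. With length and GC offsets the medians of cytosolic ribosomal protein and respiratory chain genes were 0.01 and 0.09, beside 0.04 for mitochondrial ribosomal proteins.

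Nuclear respiratory factor 1, encoded by Nrf1, and the ETS-family factor GABP, whose DNA-binding subunit is encoded by Gabpa, are known to bind promoters of nuclear genes for mitochondrial proteins. Nrf1 had 84.9, 92.5 and 84.9 CPM in controls and 80.6 and 91.6 in nulls, which overlapped (-0.02 ± 0.14, FDR = 0.961). Gabpa had 113, 105 and 116 CPM in controls and 87.9 and 80.0 in nulls, without overlap, and fell by 0.40 ± 0.14 on the log2 scale (FDR = 0.0496, exact test), past the FDR threshold alone. It was the only 1 of 11 biogenesis regulators to do so, where 5.49% of all genes tested were lower at FDR under 0.05. The median of the 11 was -0.14. With length and GC offsets the log2 fold change of Gabpa was -0.11.

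Promoter sequences were available in the RefSeq table (GRCm38.p6) for 67 members, with 73 promoters. The letters GCGCANGCG, the core of the NRF1 motif, were found on either strand in 20.5% of the 73 member promoters, against 6.25% of all 32851 promoters and 13.1% of those of tested genes. The ETS letters CCGGAAG were found in 32.9%, against 8.86% and 16.6%, and the YY1 letters AAGATGGCG in 10.96%, against 1.40% and 2.89%. The estrogen-related receptor letters AAGGTCA stood in 5.48%, against 4.72% and 3.03%, and the E-box CACGTG in 9.59%, against 7.15% and 10.02%. At least 1 of the 5 was found in 61.6% of member promoters and 24.4% of all, and this share was not counted for tested genes. The 3 members with several promoters count once for each. Matches to 2 different motifs overlapped in 1 member promoter, that of Mrpl36. A match describes letters in the window and not a bound site.

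Stretches around matches are shown for members with the smallest p that had one, and for Mrpl12 as the most abundant member in CPM. They are written 5′ to 3′ on the strand of the gene, with the letters of the named motif in capitals. The estrogen-related receptor letters at the end of the Mrps21 stretch and the E-box before the ETS letters of Mrps18c are left in lower case. They lie at chr3:95871571-95871629 (minus strand) for Mrps21, chr5:100798578-100798634 (plus) for Mrps18c, chr8:71464864-71464920 (plus) for Mrpl34, chr11:94653711-94653767 (plus) for Mrpl27 and chr11:120484532-120484590 (plus) for Mrpl12.
Mrps21, NRF1 core: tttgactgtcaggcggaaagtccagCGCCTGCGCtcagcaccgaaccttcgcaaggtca
Mrpl12, NRF1 core: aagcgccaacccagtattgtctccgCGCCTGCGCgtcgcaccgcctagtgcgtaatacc
Mrps18c, ETS: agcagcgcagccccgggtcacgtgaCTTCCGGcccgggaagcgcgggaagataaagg
Mrpl34, ETS: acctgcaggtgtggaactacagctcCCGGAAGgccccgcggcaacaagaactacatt
Mrpl27, ETS: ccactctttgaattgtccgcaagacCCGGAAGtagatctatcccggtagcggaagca

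Mrps21 and Mrpl12 hold the same 9 letters, the reverse complement of the searched core, from positions -90 and -80 relative to the start. Mrpl34 and Mrpl27 hold the ETS letters on the strand of the gene, from positions -37 and -55, and Mrps18c holds their reverse complement from position -156. The promoter of Mrpl23, the member with the smallest p, held none of the 5 motifs. The median log2 fold change was 0.37 for 15 genes with the NRF1 core and 0.38 for genes without it, and 0.41 for 24 genes with the ETS letters and 0.37 without. It was 0.37 with and 0.38 without the YY1 letters (8 genes with), 0.45 and 0.37 for the estrogen-related receptor letters (4 genes), and 0.41 and 0.37 for the E-box (5 genes).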

How the data were processed

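RNA from 5 samples of mouse embryonic neural tubes was analysed. The authors deposited 1 table per sample of raw read counts per gene symbol, without normalization, made from single-end reads of poly(A)-selected RNA. The submitters' processing notes name Trimmomatic 0.32, TopHat2 2.1.0, HTSeq 0.6.1 and build mm9. The study's methods name hg19 and give read lengths of both 65 and 100 bp. Reads that align to several places or overlap several genes are left out by HTSeq, and whether it used strand is not given in the sources used here. The sample labels gave genotype and replicate number, and no source says whether tissue was pooled.

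Counts on genes ranged from 19316126 to 41169218, so that 3 reads equal 0.155 to 0.0729 CPM. Following the study's methods, EpoR-null was compared with the 3 controls in R 4.3.3 by edgeR 4.0.16 (TMM, tagwise dispersion, two-sided exactTest, Benjamini-Hochberg over all genes tested), keeping genes that exceeded 1 CPM in 2 or more samples. A call needed a p of the exact test under 0.001 and an FDR under 0.05. With so few samples, p-values measure the spread between these samples only. Standard errors come from the negative binomial model. Transcript lengths and GC content are from GENCODE M21, using the RefSeq-matched transcript, and offsets removed a loess trend (span 0.5) of each sample. DESeq2 1.42.0 was an alternative. The exact, likelihood-ratio, quasi-likelihood and DESeq2 fits were checked on simulated counts, as were the offsets in the likelihood-ratio fit.

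Members, gene lists and motifs were chosen with earlier results of these data known. The genes named are the 6 with the smallest p (the rule allowed 6 in each direction, and no member was lower), the 3 highest and 3 lowest per kb in each subunit, 13 genes set by role, the smallest p of each list, and Epor. Others (Mrpl14, Mrpl19, Ptcd3, Nrf1, Lars2) were named after their values were seen.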

Additional observations from a re-analysis of the deposited data

How the results depend on the processing

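Every fit run gave a median log2 fold change above 0 for all, small and large subunit members, and 0 members called lower. Against 2 members called higher and 4 at FDR under 0.05, the quasi-likelihood F-test gave 0 and 0 (lowest member FDR 0.0730, 35 with unadjusted p under 0.05), DESeq2 5 and 13, library size alone 1 and 2, and no filter 0 and 1. With at least 10 reads in every sample 1 was called, and FDR under 0.05 alone gave 4. Over all genes, calls at both thresholds numbered 118 higher and 488 lower in the exact test, 0 and 0 in the quasi-likelihood F-test, 275 and 766 in DESeq2, 79 and 506 with library size alone, and 64 and 550 without a filter. Leaving out each sample in turn gave 0 to 57 members called, 0 to 66 at FDR under 0.05 and 48 to 75 with the EpoR-null samples above all controls, while calls over all genes ran from 4 to 1013 higher, and from 4 to 1796 at FDR under 0.05. When each of the 5 samples was left out in turn, the median ran from 0.13 to 0.58 for all members. It ran from 0.15 to 0.61 for the small and 0.12 to 0.58 for the large subunit. Each was lowest without EpoR-null 2 and highest without EpoR-null 1. Where a single EpoR-null sample was left, it was assumed to vary like the others.

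Length and GC offsets gave 0 called and 0 at FDR under 0.05, with medians for all, small and large subunit members of 0.0377, 0.0183 and 0.0431 in the likelihood-ratio test and 0.0376, 0.0171 and 0.0425 in the quasi-likelihood test. Adding the replicate block to those offsets gave 0 and 0, with medians of 0.0178, 0.00697 and 0.0211. Offsets from the longest transcript, chosen after seeing the data, gave 2 at FDR under 0.05 and medians of 0.0979, 0.15 and 0.0661. The quasi-likelihood F-test with the replicate block alone gave 0 called, 3 at FDR under 0.05 (Mrpl13, Mrpl34 and Mrps21) and a median of 0.33. The difference between the EpoR+/+ samples correlated with that between the EpoR-null samples across all genes (Pearson r 0.43) and across members (0.58), but 2 pairs with a shared number do not establish a pairing. The causes of these shifts were not tested.

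Of 27 named members, some changed sign, none at FDR under 0.05. Over the leave-one-out fits Mrpl12 ran from -0.102 to 0.792, Mrpl17 from -0.0461 to 0.707, Mrpl3 from -0.0187 to 0.385, Mrps12 from -0.0213 to 0.933 and Mrps18b from -0.206 to 0.784, each below 0 only without EpoR-null 2. With likelihood-ratio offsets, quasi-likelihood offsets and the block added, in this order, the values were -0.0549, -0.0554 and -0.0661 for Mrpl20, -0.0714, -0.0718 and -0.098 for Mrpl42, -0.0168, -0.018 and -0.0349 for Mrps18a, -0.0421, -0.0411 and -0.137 for Mrps18b, -0.0514, -0.0516 and -0.0454 for Mrps22 and -0.00556, -0.00706 and -0.0331 for Mrps34. With the block added Mrpl12 was at -0.0424 and Mrps12 at -0.0272. Longest-transcript offsets gave -0.0205 for Mrpl20 and -0.0579 for Mrps18b.

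With 2 EpoR-null samples that differ from each other more than the controls do, the size of the difference from controls is known only roughly. Members had at least 360 reads in each sample. No member symbol carries -ps, so the alternative without pseudogene-like symbols was not run.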

Other observations

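Lars2, the mitochondrial leucyl-tRNA synthetase, was read at 5450, 1558 and 4488 CPM in EpoR+/+ 1, EpoR+/+ 2 and EpoR+/- 1 and at 9027 and 6561 CPM in EpoR-null 1 and 2, above the summed level of all 76 Mrps and Mrpl genes in 4 of 5 samples. The groups did not overlap, but the controls differed widely and the log2 fold change of 1.02 ± 0.53 (SE) did not pass the adjusted test (FDR = 0.244, edgeR exact test). The other 19 genes on the list of mitochondrial aminoacyl-tRNA synthetases, amidotransferase subunits included, had at most 98.0 CPM in any sample. Whether all reads counted on Lars2 came from its mRNA was not tested.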
